A study of Mus musculus with 20 samples.

Results

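The genes described here are 10 markers of disease-associated microglia (DAM), namely Trem2, Tyrobp, Apoe, Lpl, Axl, Clec7a, Cst7, Gpnmb, Cd9 and Spp1. They were taken by symbol from the RNA table of the series, which holds 24062 genes. The table covered microglia isolated from the brains of 20 male mice, each brain giving a separate sample. The mThy1-α-synuclein mice, hemizygous by the label HEM, carried on their X chromosome a transgene in which the murine Thy-1 promoter drives human wild-type α-synuclein, and the controls were wild-type littermates, all on the B6D2F1/J background. Transgenic animals numbered 6 and controls 4 at 7 months, and each genotype had 5 mice at 10 months. The Thy-1 promoter is known for driving transgenes in neurons, which limits the model, and in which cells the transgene was read was not tested. The methods describe selection with CD11b beads, which also hold other myeloid cells, whereas the sample labels name IBA1. Some brains of the original groups gave too little RNA, which is why the groups are unequal.

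DAM are microglia that gather around protein deposits and dying neurons in mouse models of neurodegeneration. They lower the genes of resting microglia and raise genes of lipid transport, phagocytosis and lysosomal digestion. TREM2 is a surface receptor that binds lipids and lipoproteins, APOE among them, and signals through the adaptor TYROBP (DAP12) to the kinase SYK. In the usual scheme an early stage that does not need TREM2, with higher Apoe and Tyrobp, comes before a late stage that does, with higher Axl, Clec7a, Cst7, Lpl, Cd9 and Spp1. The comparisons asked whether these markers differed between the genotypes at either age, and whether a genotype difference changed with age.

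Between 33404096 and 77806399 reads were counted on genes per mouse. Thy1, whose promoter drives the transgene, measured 17.7 to 47.6 normalized counts (gene counts divided by a size factor for each mouse) in wild-type and 392 to 1298 in transgenic mice at 7 months, and 9.41 to 32.4 and 1117 to 1741 at 10 months. The level of Thy1 in each mouse thus matched its label. The summed level of 10 microglia markers was 1678590 to 2202898 normalized counts in the 20 mice. Neutrophil genes were also present, with a sum of 37857 to 383198 over 5 genes. The samples were bulk RNA, in which fewer cells of a type and less RNA per cell cannot be told apart.

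The RefSeq table of promoters (build GRCm38.p6) held 8 of the 10 genes; Tyrobp and Lpl had no entry. The 250 bases before the start site are printed for 4 genes, Apoe and Clec7a because their genotype differences at 7 months were the only ones with an unadjusted p under 0.05, and Cst7 and Spp1 because among all pairs of markers theirs had the smallest p by Pearson r when levels were correlated over mice. Capitals mark GGAAGT, the core bound by PU.1, the factor that defines the myeloid lineage.
Apoe, chr7:19699189-19699438, minus strand: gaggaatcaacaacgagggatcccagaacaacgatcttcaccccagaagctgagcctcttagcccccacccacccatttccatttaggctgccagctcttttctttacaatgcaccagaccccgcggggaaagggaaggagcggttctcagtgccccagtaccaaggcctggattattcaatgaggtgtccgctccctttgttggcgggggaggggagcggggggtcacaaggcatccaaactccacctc
Clec7a, chr6:129472780-129473029, minus strand: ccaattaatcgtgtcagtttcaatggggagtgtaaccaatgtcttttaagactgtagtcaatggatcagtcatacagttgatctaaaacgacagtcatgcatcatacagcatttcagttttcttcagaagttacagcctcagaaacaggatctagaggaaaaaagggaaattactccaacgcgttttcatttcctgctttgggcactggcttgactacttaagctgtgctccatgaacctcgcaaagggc
Cst7, chr2:150570165-150570414, plus strand: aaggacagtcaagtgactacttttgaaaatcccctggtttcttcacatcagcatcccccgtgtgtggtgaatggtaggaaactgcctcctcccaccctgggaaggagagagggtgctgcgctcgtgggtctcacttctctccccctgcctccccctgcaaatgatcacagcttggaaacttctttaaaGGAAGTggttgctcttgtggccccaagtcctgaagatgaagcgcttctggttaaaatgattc
Spp1, chr5:104434861-104435110, plus strand: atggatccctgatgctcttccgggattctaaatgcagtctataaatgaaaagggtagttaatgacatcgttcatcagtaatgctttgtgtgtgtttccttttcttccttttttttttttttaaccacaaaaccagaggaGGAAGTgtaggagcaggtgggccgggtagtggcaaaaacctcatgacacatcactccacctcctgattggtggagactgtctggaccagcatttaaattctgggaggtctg
The PU.1 core stood 62 bases before the Cst7 start and 111 bases before the Spp1 start, in each case on the gene's own strand. With both strands read, 2 of the 8 genes held GGAAGT in this window, against 19.7% of the 32851 promoters in the table. The nuclear receptor site AGGTCA was found in 1 of the 8, Trem2, where its reverse complement began 68 bases before the start, and in 14.0% of all promoters. Neither the AP-1 site TGACTCA nor the E-box CACGTG, which MiT-TFE factors bind, was in the window of any of the 8 genes, while 4.46% and 6.02% of all promoters held them. None of the 4 motifs overlapped another in these windows.

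All 10 genes were detected in every mouse. Per kilobase of exon, Apoe and Tyrobp had the highest mean levels over the 20 mice (59768 and 53569 normalized counts per kb), ranking 26 and 30 among 22750 genes with a known length. Cd9 followed with 19862, and Trem2, Clec7a and Spp1 lay close together at 5324, 5050 and 4825. Axl, Cst7 and Lpl had 1565, 1157 and 665 normalized counts per kb. Gpnmb, at 12.2, ranked 11503 and stood in the middle of all genes.

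At 7 months no DAM marker passed the test between the genotypes, but 8 of the 10 were higher on average in mThy1-α-synuclein mice. The median log2 fold change of the 10 was 0.31, beside 0.00 for all 13887 genes tested, of which 50.2% were above 0. Without mThy1-α-synuclein replicate 3 the median of the 10 was 0.20. Of related genes described below, 13 of 16 homeostatic, 11 of 13 TREM2 signalling and 11 of 12 cystatin and cathepsin genes were above 0. Among lipid handling genes 9 of 18 were above 0, and among other C-type lectins 5 of 11. Marker levels also tended to correlate between mice, so the 8 are not separate results. By limma's moderated test 0 of the 10 markers passed, with an adjusted p under 0.05, against 4.93% of all genes tested, and 2 of the 10 (Apoe and Clec7a) had an unadjusted p under 0.05. With edgeR and with DESeq2 on the recovered reads 1 of the 10, Apoe, passed, where 5.0% and 8.4% of all genes did. At 10 months 0 of the 10 passed with limma, against 7.67% of 13627 genes. None had an unadjusted p under 0.05, and 0 passed with edgeR or DESeq2, which called 7.93% and 12.5% of all genes. The median log2 fold change of the 10 genes at 10 months was 0.05, beside -0.00 for all genes.

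**Figure D1:**
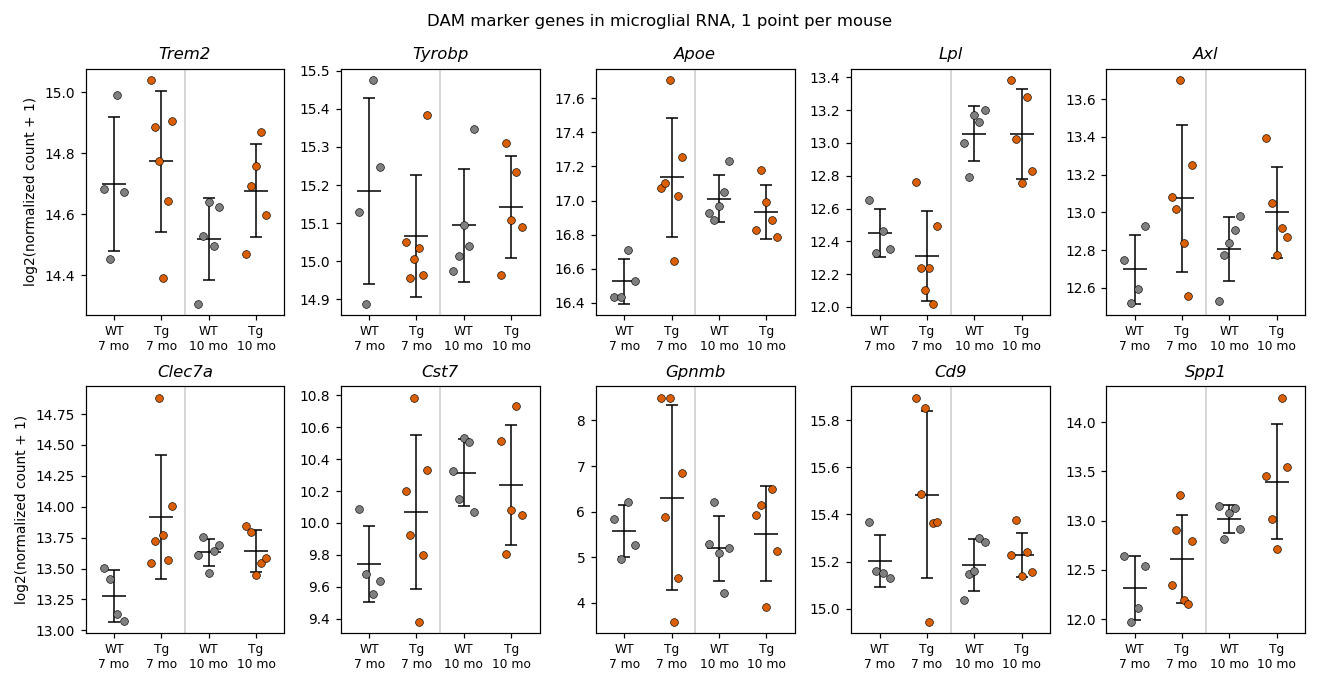
Each panel plots log2(normalized count + 1) of 1 DAM marker, with 1 point per mouse in wild-type (WT, grey) and mThy1-α-synuclein (Tg, orange) mice at 7 and 10 months. Bars are the mean ± SD on the log2 scale, and the values were normalized within each age. Clec7a at 7 months is the panel in which the points of the genotypes do not overlap, and Gpnmb has the widest scatter.

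The receptor pair Trem2 and Tyrobp showed little difference between the genotypes. Trem2 (chr17:48346401-48354147, plus strand; GRCm38 here and for all genes) ranged from 22441 to 32533 normalized counts in wild-type and from 21507 to 33714 in mThy1-α-synuclein mice at 7 months, with a log2 fold change of 0.07 ± 0.12 (SE, adjusted p = 0.769). At 10 months it ranged from 20281 to 25544 and from 22725 to 29924, and 3 of 5 mThy1-α-synuclein mice lay above all controls (log2 fold change 0.16 ± 0.08, adjusted p = 0.279). The 95% interval of that difference ran from -0.02 to 0.34. Tyrobp (chr7:30413760-30417585, plus strand), which carries the signal of TREM2 and of several other receptors into the cell, had a log2 fold change of -0.12 ± 0.11 at 7 months (adjusted p = 0.559). In the older mice the value was 0.05 ± 0.08 (adjusted p = 0.782), with an interval from -0.13 to 0.23. The groups overlapped at both ages for both genes.

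Apoe (chr7:19696109-19699188, minus strand), the lipoprotein that microglia and astrocytes use to carry cholesterol, had the clearest genotype difference at 7 months. The wild-type mice had 88414, 88488, 94553 and 107109 normalized counts, and the mThy1-α-synuclein mice ran from 102346 through a median of 139343 to 214140. Of the 6 mThy1-α-synuclein mice 5 lay above every wild-type mouse, and the sixth lay within the wild-type range. The group means were 147529 ± 37112 (SD, n = 6) and 94641 ± 8796 (SD, n = 4), a ratio of 1.56. The log2 fold change was 0.61 ± 0.16 (SE), with a 95% interval from 0.26 to 0.96, and its adjusted p of 0.0523 fell just short of the threshold. Other settings moved it across: the adjusted p was 0.0382 with edgeR, 0.000476 with DESeq2 and 0.147 without wild-type replicate 1, the lowest and highest of 18 alternatives being the last 2. Without mThy1-α-synuclein replicate 3, the highest mouse, the log2 fold change was 0.49 and the adjusted p 0.0219.

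Astrocytes are the main source of Apoe in brain, and astrocyte markers moved at 7 months as well. The summed level of 10 astrocyte markers was 10362 to 13204 normalized counts in the transgenic group and 14199 to 18522 in the controls, lower where Apoe was higher. Of these 10 genes 4 fell, among them Slc4a4, Gja1 and Aldoc with log2 fold changes of -2.01, -1.77 and -1.24, and 1 rose, Slc1a3, with a log2 fold change of 0.35 (adjusted p = 0.0262), which was named after its values were seen. Gfap and Aqp4, defining astrocyte genes, had medians of at most 82.6 and 59.5 normalized counts in any group. Markers of other brain cells were also lower in mThy1-α-synuclein mice at this age, with 6 of 9 neuronal, 3 of 8 oligodendrocyte, 1 of 5 precursor and 2 of 7 endothelial genes past the test and none of them higher. The sum of microglia markers was 1871019 to 2085861 in wild-type and 1935544 to 2202898 in mThy1-α-synuclein mice. The part of cell composition in the Apoe difference was not tested.

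At 10 months Apoe did not differ between the genotypes. The wild-type mice had 120884, 124424, 128115, 135584 and 153816 normalized counts and the mThy1-α-synuclein mice 112864, 116073, 121278, 130415 and 148487. The groups overlapped almost completely, and the log2 fold change was -0.08 ± 0.09 (SE, adjusted p = 0.639), with an interval from -0.26 to 0.11. Subtracting the 7-month from the 10-month log2 fold change in a joint fit gave -0.69 ± 0.19 (adjusted p = 0.0303, interval -1.07 to -0.30). Apoe was the only DAM marker of 10 to pass this interaction test, which 6.36% of 14457 genes passed. The call was fragile, with adjusted p from 0.00443 to 0.065 over 27 alternatives. It was lost when wild-type replicate 1 (0.065) or 2 (0.0618) at 7 months, wild-type replicate 4 (0.0501) or 5 (0.0504) at 10 months, or mThy1-α-synuclein replicate 1 (0.0525) or 5 (0.0514) at 10 months was left out. In each of these 6 fits the difference stayed negative, between -0.68 and -0.63.

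Lpl (chr8:68880491-68907448, plus strand), a lipase that releases fatty acids from lipoproteins, did not follow Apoe. At 7 months the wild-type mice had 5138, 5240, 5645 and 6424 normalized counts, while the mThy1-α-synuclein mice ran from 4154 through a median of 4835 to 6931. The ranges overlapped, although 4 of the 6 mThy1-α-synuclein mice lay below all wild-type mice, and the log2 fold change was -0.14 ± 0.13 (SE, adjusted p = 0.564). In the older groups the wild-type values were 7079, 8185, 8932, 9227 and 9392, and the mThy1-α-synuclein values were 6912, 7287, 8318, 9935 and 10691. The log2 fold change was -0.00 ± 0.12 (adjusted p = 0.994), with an interval from -0.26 to 0.26.

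Clec7a (chr6:129461591-129472779, minus strand), which encodes dectin-1, a receptor for fungal β-glucan that signals through SYK, was the only marker of the 10 whose genotypes did not overlap at 7 months. Wild-type mice had 8613, 8994, 10939 and 11591 normalized counts, and the 6 mThy1-α-synuclein mice began at 11965, with a median of 13758 and a highest value of 30207. Without overlap and in the same direction stood 3.55% of all genes tested. The highest mouse, mThy1-α-synuclein replicate 3, lay far above the next at 16449. The log2 fold change was 0.64 ± 0.25 (SE, interval 0.06 to 1.21, adjusted p = 0.194), and without that mouse it was smaller, 0.44, yet passed with an adjusted p of 0.0424. At 10 months the groups overlapped, at 11294, 12532, 12764, 13221 and 13811 in wild-type and 11186, 11941, 12309, 14238 and 14708 in transgenic mice (log2 fold change 0.01 ± 0.08, adjusted p = 0.95). The difference between the ages was -0.62 ± 0.27 and missed the threshold (adjusted p = 0.179). The annotation lists Clec7a as a polymorphic pseudogene, a class for genes that are intact in some strains only.

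Axl (chr7:25757273-25788705, minus strand), a receptor tyrosine kinase of the TAM family that binds GAS6 on dying cells, was above all wild-type mice in 4 of 6 mThy1-α-synuclein mice at 7 months. The ranges were 5862 to 7786 in wild-type and 6015 to 13327 in mThy1-α-synuclein mice, with a log2 fold change of 0.38 ± 0.19 (SE, adjusted p = 0.289). At 10 months they were 5920 to 8083 and 7012 to 10756 (0.20 ± 0.11, adjusted p = 0.314). The intervals of these differences, -0.05 to 0.80 and -0.04 to 0.43, include 0.

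Cst7 and Gpnmb are tied to lysosomes and phagosomes, the former as cystatin F, an inhibitor of cathepsins, and the latter as a membrane glycoprotein. Cst7 (chr2:150570415-150578944, plus strand) ranged from 750 to 1088 normalized counts in wild-type and from 666 to 1764 in mThy1-α-synuclein mice at 7 months (log2 fold change 0.33 ± 0.24, adjusted p = 0.453; 0.19 without mThy1-α-synuclein replicate 3). The 10-month ranges were 1071 to 1481 and 894 to 1698 (-0.08 ± 0.16, adjusted p = 0.812). The mThy1-α-synuclein mice thus enclosed the whole wild-type range at both ages.

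Gpnmb (chr6:49036546-49070929, plus strand) was the least expressed marker and the most variable. At 7 months wild-type mice had 30.2, 37.2, 56.6 and 73.2 normalized counts, and mThy1-α-synuclein mice ran from 11.04 through a median of 86.0 to 361, a range of 32.7-fold within 1 group. Replicates 1 and 3 stood apart at 361 and 356, followed by 114. The log2 fold change was 0.74 ± 1.00 (SE), with an interval from -1.52 to 2.99 (adjusted p = 0.714). For Gpnmb it was 0.30 without replicate 1 or replicate 3, 1.28 without replicate 4 and 1.65 with edgeR, and passed in none of these. Later, at 10 months, wild-type mice had 17.5, 33.0, 36.0, 38.1 and 73.2 and transgenic mice 13.9, 34.1, 59.6, 70.2 and 88.7 (0.32 ± 0.48, adjusted p = 0.74). Within groups the SD of log2 values was 1.32 for Gpnmb, wider than for 96.4% of 14457 genes, and 0.17 to 0.41 for the other 9 markers, where the median of all genes was 0.20.

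Most genes near Gpnmb varied less. Of 23 tested genes that start within 1 Mb of it, 14 varied less than 2-fold within every group. The share of all genes that did so was not computed, so this count describes these genes only. The correlation of the group-centred log2 values of the 23 genes with Gpnmb ran from -0.45 to 0.54. At 7 months 2 of 23 passed between the genotypes, against 4.93% of all genes tested, and at 10 months 2 of 22, against 7.67%. Gimap4 and Gimap8 fell in mThy1-α-synuclein mice at 7 months, by 1.17 and 1.25 on the log2 scale (adjusted p = 0.0488 and 0.0414). At 10 months Tra2a fell by 0.64 (adjusted p = 0.00435) and Zfp467 rose by 0.43 (adjusted p = 0.0106).

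Cd9 (chr6:125460266-125494791, minus strand), a tetraspanin that organises membrane proteins, and Spp1 (chr5:104435118-104441050, plus strand), the secreted cytokine osteopontin, complete the set. Cd9 ranged from 35913 to 42238 normalized counts in wild-type and from 31563 to 60952 in mThy1-α-synuclein mice at 7 months (log2 fold change 0.28 ± 0.16, adjusted p = 0.343). The 10-month ranges were narrow and nearly the same, 33601 to 40369 and 36052 to 42556 (0.04 ± 0.07, adjusted p = 0.761). Spp1 ranged from 4031 to 6401 and from 4571 to 9810 at 7 months (0.29 ± 0.24, adjusted p = 0.538; 0.16 without mThy1-α-synuclein replicate 3 and 0.18 without wild-type replicate 2). By 10 months the 5 wild-type mice were close together at 7186, 7738, 8630, 8941 and 9057, whereas the mThy1-α-synuclein mice spread over 6702, 8288, 11177, 11975 and 19447. The log2 fold change of Spp1 was 0.38 ± 0.25 (adjusted p = 0.403), and without the mouse at 19447, replicate 4, it was 0.17. The exons or introns of both genes overlap other annotated genes, Gm26728 and Gm28809 at Cd9 and Gm42793 at Spp1, and whether the counting used the strand is not given in the sources used here.

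**Figure D2:**
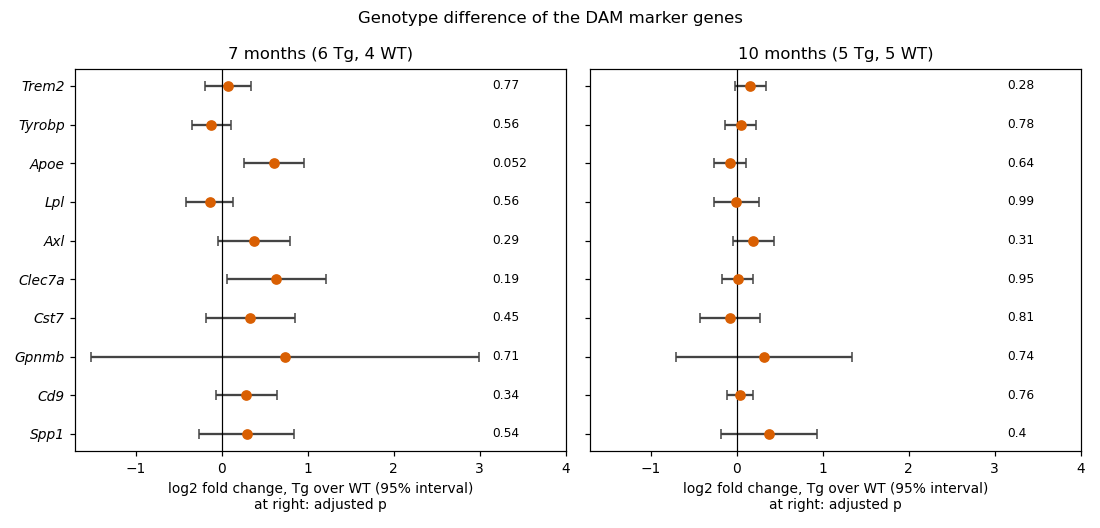
Points are the log2 fold change of mThy1-α-synuclein (Tg) over wild-type (WT) mice for each DAM marker at 7 and 10 months, with 95% intervals from limma and the adjusted p at the right. At 7 months the intervals of Apoe (0.26 to 0.96) and Clec7a (0.06 to 1.21) lie above 0, and at 10 months every interval includes 0.

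The 6 mThy1-α-synuclein mice at 7 months had the largest SD of log2 values of the 4 groups for 7 of the 10 markers. Replicate 3 had the highest level of the group in 5 of 10 markers (Apoe, Axl, Clec7a, Cst7 and Spp1), and replicate 1 in another 4. Replicate 4 was lowest in 5 and replicate 5 in 3. These mice also differed in other RNA: the neutrophil sum was 37857 normalized counts in replicate 3, 63869 in replicate 1, 231058 in replicate 4 and 383198 in replicate 5. The remaining mice did not follow that order, since replicate 6, highest in Tyrobp and lowest in no marker, had 210621, and replicate 2, highest in no marker, had 62352. Replicate 3 had in addition the deepest library of all, with 77806399 reads. The microglia marker sum varied from 1935544 to 2202898 in this group, a narrower range than that of Apoe, and the part of neutrophil RNA or depth in the spread of the markers was not tested.

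Over all 20 mice, after removal of the group means, 40 of the 45 pairs of DAM markers had a positive correlation, with a median Pearson r of 0.42. None of the 45 passed a two-sided permutation test within groups after adjustment over the pairs (100000 resamples, smallest adjusted p 0.104 for r and 0.164 for rho), while 11 pairs had an unadjusted p under 0.05 by r and 8 by rho. The smallest p by Pearson r was that of Cst7 with Spp1, the pair whose promoters are printed above (r = 0.74, permutation p = 0.00231; rho = 0.68, permutation p = 0.00731). That pair had r of 0.75 at 7 months, 0.74 at 10 months and 0.66 without the 2 mice farthest from the Cst7 median. Trem2 with Tyrobp had the smallest p by rho (r = 0.61, permutation p = 0.0134, adjusted 0.151; rho = 0.65, permutation p = 0.00557), with 0.58 and 0.69 at the 2 ages and 0.60 without 2 mice. Gpnmb with Cd9 had the highest r, 0.77 (permutation p = 0.00776, adjusted 0.151; rho = 0.55, permutation p = 0.0464), with 0.90 at 7 months, 0.16 at 10 months and 0.53 without 2 mice. Pairs with r above 0.5 numbered 24 at 7 months and 11 at 10 months, and the median r was 0.53 and 0.16, a difference that was not tested. Apoe with Clec7a had r = 0.59 (permutation p = 0.127) and rho = 0.09 (permutation p = 0.73). Its r came to 0.07 without 2 mice, mThy1-α-synuclein replicates 3 and 4 at 7 months. Without replicate 3 alone r was 0.003, so it rests on that mouse.

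**Figure D3:**
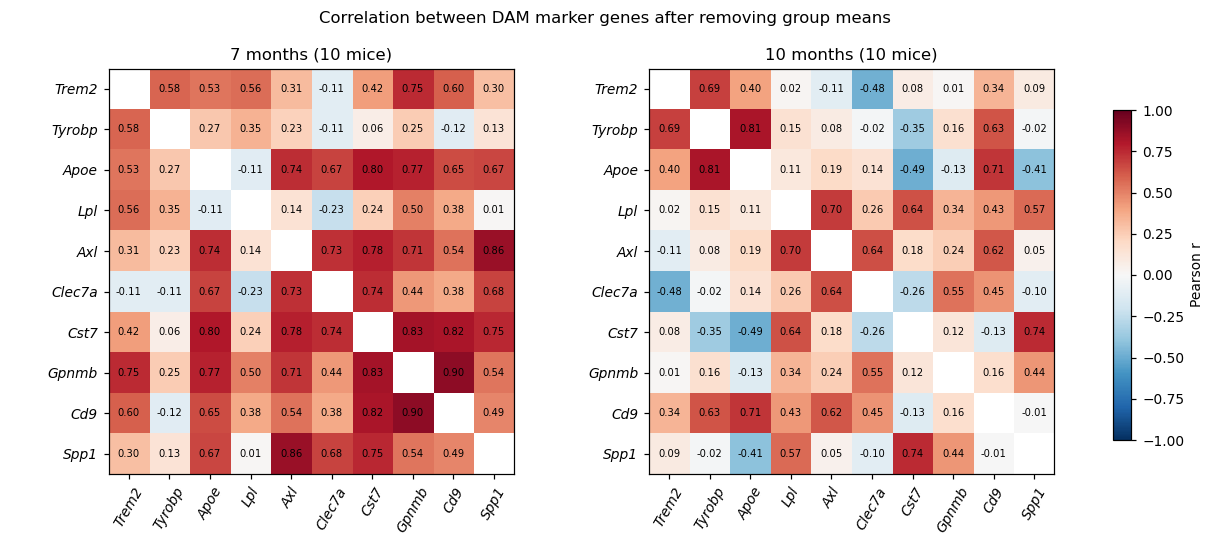
Each cell gives Pearson r between 2 DAM markers over 10 mice of an age, from log2(normalized count + 1) minus the mean of the mouse's group, with red for positive and blue for negative values. At 7 months 40 of 45 pairs are positive and at 10 months 33, and Cst7 with Spp1 is high at both ages (0.75 and 0.74).

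Among the other 14447 genes tested, those whose group-centred levels were most like the 10 markers over the 20 mice included N6amt1 (mean r 0.58), Ifi27 (0.55), Tmem219 (0.54) and Ndufc2 (0.54). Ifi27, an interferon-inducible gene, was closest to Axl (r = 0.75). Of these 4 genes N6amt1 and Ifi27 rose in mThy1-α-synuclein mice at 10 months, by 0.41 (adjusted p = 0.0218) and 0.84 (adjusted p = 0.00603) on the log2 scale. All 4 share the libraries and the scaling with the markers, so these values are a description.

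Other genes of the DAM program passed in few cases, and the counts of this and the following lists stand beside 4.93% of all genes tested at 7 months and 7.67% at 10 months. Of 9 further early genes 0 passed at 7 months, and at 10 months Lyz2, the lysozyme of myeloid cells, fell by 0.54 ± 0.13 on the log2 scale (adjusted p = 0.0242). Of 15 further late genes 0 passed at 7 months, where 11 of 15 were above 0 and their median log2 fold change was 0.27. At 10 months 1 rose and 2 fell: Itgax, the integrin CD11c, rose by 0.31 ± 0.09 (adjusted p = 0.0432), while the galectin gene Lgals3 fell by 0.74 ± 0.14 (adjusted p = 0.00862) and Cd52 by 0.38 ± 0.09 (adjusted p = 0.0274). The median of these 15 at 10 months was -0.11. Lyz2, Lgals3 and Cd52 are also expressed by monocytes and neutrophils, whose summed markers were lower in mThy1-α-synuclein mice at 10 months, 14533 to 24617 against 24836 to 48346 for 6 monocyte genes (3 fell) and 62335 to 167100 against 135218 to 334772 for 5 neutrophil genes (1 fell). Border macrophage genes were lower too, with 5 of 9 past the test and sums of 32442 to 40321 against 42779 to 54767. Their part in these falls was not tested.

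Homeostatic genes, which DAM are known to lower, rose where they passed. At 7 months 1 of 16 did so, the P2Y-family receptor gene Gpr34, with 106724 ± 12314 (SD, n = 6) against 73781 ± 3803 (SD, n = 4) normalized counts (log2 fold change 0.53, adjusted p = 0.00334). At 10 months 4 of 16 rose and none fell: Mef2c (0.30, adjusted p = 0.0202), Sall1 (0.30, adjusted p = 0.0266), Siglech (0.31, adjusted p = 0.0398) and Cx3cr1 (0.21, adjusted p = 0.0473). Over all genes tested at 10 months 7.67% passed. Of the 4 genes, 3 (Sall1, Siglech and Cx3cr1) are also among the 10 microglia markers, of which 4 rose, in the mice whose monocyte, neutrophil and border macrophage sums were lower, and the part of cell composition was not tested. The median of the 16 was 0.14 at both ages. Gpr34 passed in each of 18 alternatives, whereas Cx3cr1 lost its call in 14 of 18, Sall1 and Siglech in 8, Itgax in 12, Cd52 in 7 and Lyz2 in 5.

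Among genes that act with TREM2 the share that passed was near that of all genes, 1 of 13 TREM2 signalling genes at each age. Adam17, a protease that sheds TREM2, rose at 7 months (0.31 ± 0.07, adjusted p = 0.0148), and Syk fell at 10 months (-0.32 ± 0.07, adjusted p = 0.0121). Of 18 tested lipid handling genes, Soat1, which esterifies cholesterol, rose at 7 months (0.50, SE 0.095, adjusted p = 0.00679). By 10 months 3 rose and 2 fell, with the cholesterol exporters Abca1 (0.34, adjusted p = 0.0415, named after its values were seen) and Abcg1 (0.36 ± 0.06, adjusted p = 0.00583) and the APOE receptor Lrp1 (0.53 ± 0.10, adjusted p = 0.00713) upward and the lipid droplet gene Plin2 (-0.52 ± 0.09, adjusted p = 0.00603) among those that fell. The median log2 fold change of the lipid list was 0.05 at 7 and -0.01 at 10 months. Syk, Soat1, Abcg1, Plin2 and Lrp1 passed in each of 18 alternatives.

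In the lists of partners of the other markers the counts that passed were uneven, beside 4.93% of all genes at 7 and 7.67% at 10 months. At 7 months 3 of 6 tested genes of the TAM list passed, and at 10 months 4 of 11 other C-type lectins. The other lists had at most 2 at an age, and with lists this short a single gene is already a share above that of all genes. The TAM list holds receptors and ligands of the TAM family together with Mfge8 and the integrin genes Itgav and Itgb5, which are not of that family. Among its 6 tested genes Mertk (0.35, adjusted p = 0.022) and Pros1 (0.25, adjusted p = 0.0343) rose at 7 months. Gas6, the ligand of AXL, fell by 0.47 (adjusted p = 0.0162). Astrocyte, neuronal and endothelial markers were lower in the same mice (list medians -1.19, -1.68 and -0.65). The part of cell composition in the Gas6 fall was not tested. Of 8 osteopontin receptor genes Itga5 rose at 7 months (0.46, adjusted p = 0.046), and Cd44 fell at 10 months, from 8832 ± 2610 to 4162 ± 909 normalized counts (SD, n = 5 in each group, adjusted p = 0.0298). Cd44 is also expressed by monocytes and neutrophils, whose sums were lower in the same mice, and their part was not tested. Ctsc, a cathepsin that cystatin F inhibits, rose at 7 months (0.56 ± 0.08, adjusted p = 0.00183) as the only one of 12 cystatin and cathepsin genes, and passed in each of 18 alternatives. Among 9 tetraspanins Tspan3 rose (0.37, adjusted p = 0.0282) and Tspan14 fell (-0.25, adjusted p = 0.0309) at 10 months. Of 4 MiT-TFE factors, which drive lysosomal genes and Gpnmb, Mitf rose at 7 months (0.38, adjusted p = 0.0372). Of 11 other C-type lectins 4 fell at 10 months, Clec4d, Clec4e, Clec4n and Clec4a1, with log2 fold changes of -1.74 to -0.55, in the group with less monocyte and neutrophil RNA, whose part was not tested. Of these calls, those of Pros1, Itga5, Mitf, Cd44 and Clec4a1 were lost in 9, 10, 8, 7 and 11 of 18 alternatives.

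**Figure D4:**
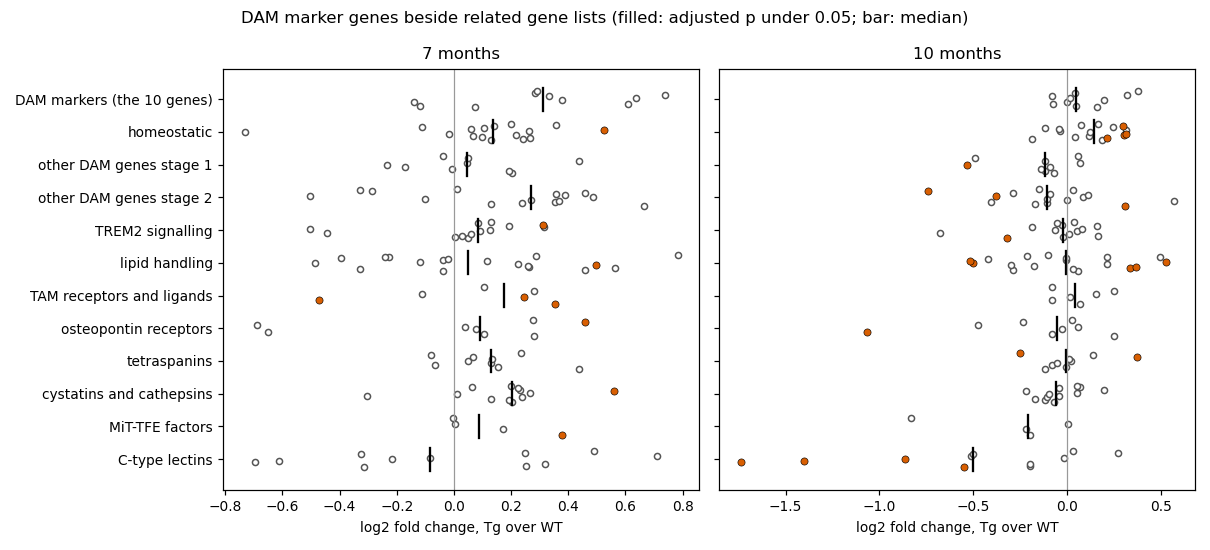
Each point is the log2 fold change (Tg over WT) of 1 gene in the 10 DAM markers and in 11 related lists at 7 and 10 months, filled where the adjusted p was under 0.05, with a bar at the median of the list. None of the 10 DAM markers is filled at either age, and their median is 0.31 at 7 and 0.05 at 10 months.

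Levels at the 2 ages were compared on reads scaled by size factors over all 20 mice. The mice of an age were handled together up to nucleic acid isolation, so age and handling cannot be told apart, although the RNA was sequenced in a single run. In wild-type mice 5 of the 10 markers (Apoe, Lpl, Clec7a, Cst7 and Spp1) were higher in every mouse at 10 months than in any at 7 months, which held for 5.54% of all 14452 genes tested. Of these 5, Lpl and Apoe passed the test, which 9.97% of all genes did in either direction. Lpl was 8868 ± 983 (SD, n = 5) against 5417 ± 563 (SD, n = 4) normalized counts (log2 fold change 0.71 ± 0.14, adjusted p = 0.00355), and Apoe 137279 ± 13457 against 91357 ± 8530 (0.59 ± 0.14, adjusted p = 0.0104). Cst7, Spp1 and Clec7a had log2 fold changes of 0.68, 0.80 and 0.45 (adjusted p = 0.0653, 0.0735 and 0.161), and with DESeq2 Cst7 passed as well (0.0159), where 12.6% of all genes did. Trem2 and Tyrobp were at -0.08 and 0.01. Markers of other cells moved between the ages of wild-type mice too, with 5 of 10 astrocyte and 5 of 9 neuronal genes lower (list medians -1.05 and -1.30), 1 astrocyte gene higher, and 3 of 7 endothelial genes higher (median 0.93) at 10 months, and their part in the age differences was not tested.

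In mThy1-α-synuclein mice only Lpl of the 10 markers passed between the ages, where 0.906% of all genes did. It was 8948 ± 1706 (SD, n = 5) at 10 months against 4965 ± 988 (SD, n = 6) at 7 months (log2 fold change 0.85 ± 0.13, adjusted p = 0.0025), and no 7-month mouse reached a 10-month one, as for 1.29% of all genes in this direction. Endothelial genes were higher at 10 months in these mice as well, 5 of 7 with a list median of 1.34. Apoe was at 130476 ± 14700 against 142059 ± 35525 normalized counts (log2 fold change -0.09 ± 0.12, adjusted p = 0.81). The order of Apoe levels was thus wild-type at 7 months lowest, with the other 3 group means between 130476 and 142059 and overlapping one another. Spp1 had a log2 fold change as large as that of Lpl, 0.89 ± 0.25, but missed the threshold (adjusted p = 0.109), and passed with DESeq2 (0.0239), where 2.08% of all genes did. Lpl passed in both genotypes in every alternative run, leaving out each mouse included.

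**Figure D5:**
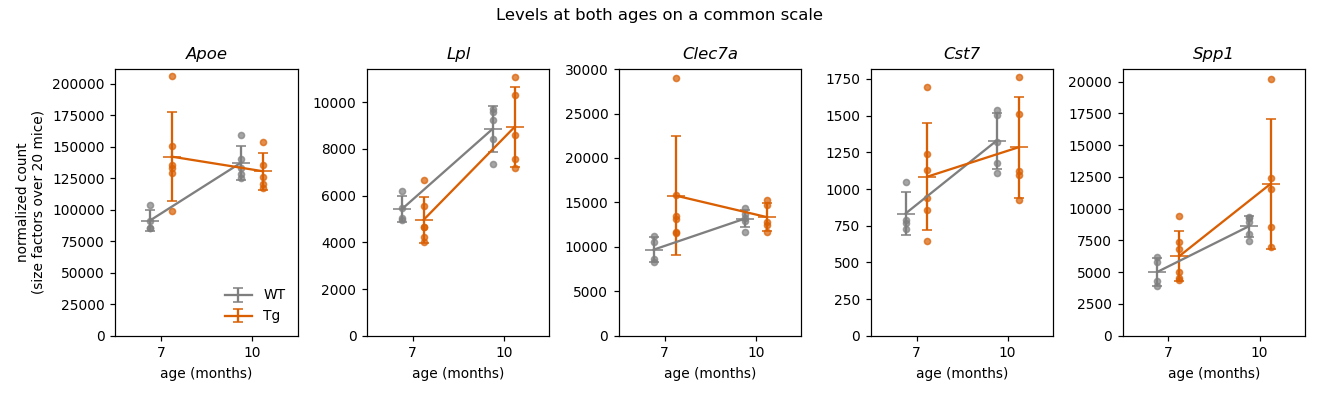
Normalized counts on a scale common to the 20 mice are plotted against age for 5 DAM markers in wild-type (WT, grey) and mThy1-α-synuclein (Tg, orange) mice, with points for mice and mean ± SD as lines and bars. Lpl is higher at 10 months in both genotypes, and Apoe of wild-type mice moves from 91357 to 137279, up to the level that mThy1-α-synuclein mice had at 7 months (142059).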

How the data were processed

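RNA from microglia of 20 mice was compared between genotypes within each age. The authors trimmed reads with Trim Galore 0.6.7, mapped them to mm10 with HISAT2 2.2.1 and counted them per gene with featureCounts, and the deposited signal values are these gene counts divided by a DESeq2 size factor per mouse. The step between values equalled the inverse of a size factor computed over the mice of 1 age, so ages had been normalized separately, and dividing by the step gave whole reads for 100% of values (tolerance 0.01). For 1 library, transgenic replicate 5 at 10 months, the step lay too near 1 to test, and it was treated alike. The strand setting and annotation release of the counting are not given in the sources used here. Files of single mice repeated the table and were not used.

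The test was limma 3.58.1 on log2(value + 1), with trend and robust estimation, for genes with at least 10 in at least 4 mice at 7 months, 5 at 10 months, or 4 of 20 for the interaction and ages, with Benjamini-Hochberg adjustment over all genes tested and a cutoff of 0.05. Adding 1 shrinks the fold change of low genes such as Gpnmb only slightly. The test compares means of logs, which differ from ratios of means where a few mice are high. For Gpnmb at 7 months the ratio of group means was 3.12 and that of medians 1.83. Alternatives were edgeR 4.0.16 and DESeq2 1.42.0 on recovered reads, other pseudocounts, no filter, TMM scaling, a replicate block, leaving out each mouse and 1 fit of 20 mice. For the age difference, edgeR, DESeq2 and leaving out mice were added after seeing the data, as was leaving out mice for the correlations. Scripts were tested on simulated data.

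The 10 genes and the lists of related genes were chosen with earlier results of these data known. All 10 are named, as are of each list up to 4 genes per age with the smallest adjusted p past the cutoff, the 5 genes most like the markers, Thy1, and neighbours within 1 Mb of a marker that varied over 10-fold within a group. Some genes that this rule names are not reported here. Of the lists, Lilrb4a, Ms4a4a and Ly6g were not matched in the table. Positions come from the GENCODE annotation of GRCm38 and exon lengths from its exons. Replicates were separate mice, and no samples were left out. Between any 2 mice of a group the counts differed by a mean chi-square of at least 24.7 per gene. The mean was taken over genes with at least 20 reads in the pair. On average counting error was thus small beside the spread between mice. Genes with many reads weigh most in this mean, so it does not show how large counting error was for low genes such as Gpnmb. Other tools were R 4.3.3, Python 3.11.15, numpy 2.4.6 and matplotlib 3.10.9.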

Additional observations from a re-analysis of the deposited data

Results flagged for a closer look

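Among 40 groups of values (10 markers in 4 groups), 3 held a mouse whose distance to its nearest neighbour was too large a share of the group's range, and chance alone gives about 1 in 20. Clec7a in mThy1-α-synuclein replicate 3 at 7 months was 30207 normalized counts, with the next mouse at 16449. Tyrobp in mThy1-α-synuclein replicate 6 at 7 months was 42737, with the next at 33957. Cd9 in wild-type replicate 1 at 7 months was 42238, with the next at 36579. The genotype effect on Apoe differed between the ages by a test of the difference itself, by -0.69 on the log2 scale (adjusted p = 0.0303 by limma).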

How the results depend on the processing

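No genotype difference of a DAM marker at 10 months passed under any of 18 alternatives. At 7 months the number of markers that passed was 1 (Apoe) with edgeR, with DESeq2, with TMM scaling, with the replicate block and in 1 fit of 20 mice, and 0 to 2 when a mouse was left out. It was 2 without mThy1-α-synuclein replicate 3 (Apoe and Clec7a) and 1 without replicate 4. In the interaction the number was 0 or 1 when a mouse was left out, and 1 in every other alternative. Between ages in mThy1-α-synuclein mice it was 2 with DESeq2 (Lpl and Spp1) and 1 otherwise, and in wild-type mice 3 with DESeq2 (Lpl, Apoe and Cst7) and 2 otherwise. The cause of these changes was not tested.

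Counts over all genes moved more. DESeq2 gave 1166 genes at 7 months and 1698 at 10 months, against 684 and 1045. Leaving out a mouse gave 280 to 860 genes at 7 months, below 684 by over 1.5 times without wild-type replicate 1 (280), 2 (443) or 3 (367). At 10 months it gave 489 to 1232, below 1045 by as much without wild-type replicates 1, 2, 3 and 5 and mThy1-α-synuclein replicates 1, 3 and 5 (489 to 667). In the interaction it gave 618 to 1097 genes against 920. Between ages 2188 genes passed in wild-type and 830 in mThy1-α-synuclein mice with the values as deposited, against 1441 and 131, and 300 with DESeq2 in the latter. Leaving out a mouse gave 961 to 1290 and 27 to 164, the latter below 131 by over 1.5 times without mThy1-α-synuclein replicates 2, 3 and 6 at 7 months and 1 to 4 at 10 months. Of the 45 correlations 0 to 2 passed when a mouse was left out, 2 without wild-type replicate 4 and 1 without mThy1-α-synuclein replicate 2 at 7 months. The calls of listed genes were less firm than those named as stable in the text, since 13 of 54 (a gene counted under each of its lists) passed in every alternative, and none of the 54 changed sign. Abca1, Slc1a3, the genes near Gpnmb and those most like the markers were tested in 1 setting only.

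Equal replicate numbers did not pair mice. The correlation of same-numbered mice was -0.13 to 0.10, and 1 of 9 mice had its best match in its own number. With the replicate block 414 genes passed at 7 months, 916 at 10 months and 482 in the interaction, and Apoe passed at 7 months (adjusted p = 0.042).

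Gpnmb alone among the markers came near the filter value of 10, with values down to 11.04 normalized counts. That lowest value was 13 reads in mThy1-α-synuclein replicate 4 at 7 months, a library of 60543788 reads.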
